A study of Mus musculus with 12 samples.

Results

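Aqp4, Coq8a, Cib3, Neurl1b, Togaram2 and Tmsb15b2 are 6 genes whose RNA was much lower in palmitate-treated than in vehicle-treated mouse islets and which were grouped as less studied. They were picked by name from the palmitate results of these same libraries, out of 22141 genes with counts and 15794 genes that passed the filter on low counts, and all 6 passed it. Their palmitate differences are therefore a description and carry no test, whereas their response to C3a averaged over both media was not used to choose them.

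The libraries are messenger RNA of pancreatic islets isolated from male wild-type mice aged 10 to 12 weeks and cultured in lots of about 120. The 4 groups, with 3 libraries each, were vehicle or palmitate, each without or with added C3a. Palmitate is a saturated fatty acid used to stress islet cells, and C3a is the peptide cleaved from complement C3 that acts on the receptor C3ar1. The doses, the duration, the vehicle and whether a group's libraries came from separate animals are absent from the labels read here, so p-values measure only the spread between these libraries, which may be technical. The library numbered 1 of each group was sequenced in batch 1 and those numbered 2 and 3 in batch 2. Library totals ran from 22216420 to 50264695 counts. The defining markers of beta cells were abundant: their 10 genes summed to between 160000 and 193000 CPM (counts scaled to library size) with vehicle and between 135000 and 176000 with palmitate.

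The genes have separate textbook roles. Aqp4 encodes a water channel best known from the end feet of brain astrocytes. Coq8a encodes an atypical kinase-like protein of the mitochondrial inner membrane that is needed to make coenzyme Q, the electron carrier of the respiratory chain. Cib3 belongs to the calcium- and integrin-binding proteins, small EF-hand proteins of which some are partners of the mechanotransduction channels of hair cells. Neurl1b encodes a Neuralized-type ubiquitin ligase, a family that acts on Notch ligands in the cell that sends the signal. Togaram2 encodes a protein with TOG domains, which bind tubulin, and its paralog Togaram1 acts in primary cilia. Tmsb15b2 encodes a beta thymosin, a very short protein of a family that binds actin monomers.

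In the GRCm38 build with the GENCODE M21 annotation, Coq8a (ENSMUSG00000026489.13) spans chr1:180165238-180199602 on the minus strand. Cib3 (ENSMUSG00000074240.4) lies at chr8:72204335-72212837, minus strand. Neurl1b (ENSMUSG00000034413.14) and Togaram2 (ENSMUSG00000045761.16) are both on the plus strand of chromosome 17, at chr17:26414829-26446349 and chr17:71673261-71729669. Tmsb15b2 (ENSMUSG00000089996.6) spans chrX:136955265-136975497, minus strand.

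The Tmsb15b2 sequence is shown first because it decides how its counts can be read. Tmsb15b2 sits in a cluster with Tmsb15b1 and Tmsb15l, and its coding sequence of 138 bases differs from that of Tmsb15b1 at 4 positions (97.1% identity). The capitals in the Tmsb15b1 line mark the bases that differ from Tmsb15b2. Both are spliced coding sequences read from the genome by the annotation.
Tmsb15b2-201: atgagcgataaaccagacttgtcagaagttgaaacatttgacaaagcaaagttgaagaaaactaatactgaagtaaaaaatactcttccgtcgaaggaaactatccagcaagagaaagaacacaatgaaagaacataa
Tmsb15b1-201: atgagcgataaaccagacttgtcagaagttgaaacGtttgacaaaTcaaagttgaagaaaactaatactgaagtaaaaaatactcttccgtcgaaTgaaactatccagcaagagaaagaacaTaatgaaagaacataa

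The stretches printed here from before the transcription starts of these neighbours are also nearly the same, with 199 of 204 aligned bases identical (97.5%). They come from RefSeq on GRCm38.p6, and capitals mark matches to the 9 motifs searched on both strands. The windows are chrX:136958026-136958229 for Tmsb15b2 and chrX:136976875-136977124 for Tmsb15b1, minus strand. The Tmsb15b2 window lies within introns of Tmsb15l-201 and Tmsb15b2-202, so it is not outside all annotated transcripts.
Tmsb15b2: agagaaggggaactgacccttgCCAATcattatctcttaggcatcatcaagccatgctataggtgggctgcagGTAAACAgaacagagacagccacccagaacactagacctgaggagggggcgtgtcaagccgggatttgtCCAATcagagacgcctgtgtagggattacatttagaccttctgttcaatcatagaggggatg
Tmsb15b1: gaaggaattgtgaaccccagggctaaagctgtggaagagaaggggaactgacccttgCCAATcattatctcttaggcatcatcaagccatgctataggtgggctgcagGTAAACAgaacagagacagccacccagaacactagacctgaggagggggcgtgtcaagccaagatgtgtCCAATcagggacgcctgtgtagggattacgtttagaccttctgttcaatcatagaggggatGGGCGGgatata
Each holds 1 match to GTAAACA, the FoxO element, and 2 matches to CCAAT. Of 32851 RefSeq windows of the full 250 bases, 3.17% hold GTAAACA and 33.8% hold CCAAT. The printed Tmsb15b2 stretch is shorter, at 204 bases. Tmsb15b1 also holds 1 match to GGGCGG, the GC box, and Tmsb15b2 holds 2 that reach into exon bases not printed.

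Windows of 2 further genes that hold motif matches are shown for comparison, chr1:180196076-180196270 on the minus strand before the main start of Coq8a and chr17:26414609-26414828 on the plus strand before Neurl1b.
Coq8a: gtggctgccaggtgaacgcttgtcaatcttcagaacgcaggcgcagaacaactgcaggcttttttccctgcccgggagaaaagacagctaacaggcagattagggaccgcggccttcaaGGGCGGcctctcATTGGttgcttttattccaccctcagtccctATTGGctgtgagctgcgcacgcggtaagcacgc
Neurl1b: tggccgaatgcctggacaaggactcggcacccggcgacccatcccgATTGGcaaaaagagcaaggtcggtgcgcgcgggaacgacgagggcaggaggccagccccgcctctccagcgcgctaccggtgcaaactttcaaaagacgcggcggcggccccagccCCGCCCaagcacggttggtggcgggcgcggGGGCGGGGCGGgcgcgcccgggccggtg
The printed Coq8a stretch is also spanned by 1 annotated transcript model. Over the full 250 bases before the start, part of which is not printed because a transcript begins there, the Coq8a window held 3 CCAAT matches and 1 GC box. The Neurl1b window held 1 CCAAT match and 4 GC boxes, some of which overlap, and GGGCGG occurs in 32.7% of all windows. None of these 4 windows held TGACGTCA (cAMP response element, 1.55% of all windows), TGATGCAA (ATF4 element, 0.791%), the PPAR element (0.0335%), CACGTG (E-box, 6.02%), TATAAA (12.4%) or TAATTA (homeobox core, 4.84%). The windows of Cib3 and of another start of Coq8a, not printed, held 0 matches to any of the 9 motifs. A match is a run of letters, not a known site.

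Each of the 6 genes was lower in all 6 palmitate libraries than in all 6 vehicle libraries, which was true of 8.33% of the genes tested. Palmitate changed 25.4% of all genes without C3a and 26.9% with it, by edgeR at an adjusted p under 0.05. Because the genes were chosen on this contrast, nothing is read from these shares. The level of a library is given in CPM scaled by the TMM method, and changes are log2 differences with a standard error (SE) from edgeR. In bulk islets, fewer cells of a type and less RNA per cell cannot be told apart.

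Aqp4 (ENSMUSG00000024411.10) lies at chr18:15389496-15410982 on the minus strand. It measured 17.3, 24.9 and 25.3 CPM in vehicle libraries 1, 2 and 3, and 16.9, 26.9 and 26.1 with vehicle and C3a. It measured 8.26, 11.0 and 10.8 with palmitate, and 6.42, 10.3 and 10.0 with palmitate and C3a. The batch 1 library was the lowest of its group in all 4 groups, and the palmitate and vehicle libraries did not overlap. The log2 difference was -1.16 ± 0.06 (SE) without C3a and -1.39 ± 0.07 with it. Between 38.0% and 47.8% of the same-numbered vehicle level was left. Schwann and glial markers, the list nearest to the astrocyte setting of this channel, summed to between 23.4 and 35.9 CPM with vehicle and between 17.4 and 28.1 with palmitate. For palmitate averaged over both media, 3 of the 5 were called lower by edgeR, against 19.4% of all genes. The part of these markers in the Aqp4 difference was not tested.

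Coq8a measured 29.1, 25.9 and 28.6 CPM with vehicle and 33.5, 30.7 and 32.0 with vehicle and C3a. With palmitate it measured 12.4, 11.8 and 14.4, and with palmitate and C3a 11.8, 11.6 and 14.2. The palmitate libraries formed a narrow band whether or not C3a was present. The log2 differences were -1.11 ± 0.10 and -1.35 ± 0.10 (SE).

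Cib3 measured 7.03, 6.88 and 8.42 CPM with vehicle and 8.8, 9.69 and 9.57 with vehicle and C3a. With palmitate it measured 1.7, 3.21 and 3.57, and with palmitate and C3a 1.11, 4.19 and 3.79. The batch 1 palmitate libraries were the lowest, at 43 and 30 counts. The log2 difference was -1.43 ± 0.29 (SE) without C3a and -1.69 ± 0.29 with it, and -1.16 and -1.28 in batch 2 alone. This gene had the widest error of the 6.

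Neurl1b measured 7.07, 6.04 and 7.13 CPM with vehicle and 7.13, 6.23 and 7.03 with vehicle and C3a. With palmitate it measured 1.9, 2.94 and 2.54, and with palmitate and C3a 3.4, 3.25 and 2.95. All 3 palmitate libraries with C3a were above all 3 without it, the closest pair being 2.95 and 2.94 CPM. This was not particular to Neurl1b, as Coq8a and Cib3 were separated by C3a in the same direction among the vehicle libraries. The share of all genes separated in this way was not counted, so nothing is read from it. The log2 differences were -1.44 ± 0.16 and -1.09 ± 0.15 (SE).

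Togaram2 measured 5.21, 4.69 and 4.87 CPM with vehicle and 4.87, 5.46 and 5.64 with vehicle and C3a. With palmitate it measured 2.29, 2.62 and 2.31, and with palmitate and C3a 2.07, 2.13 and 2.52. The groups with and without palmitate were well apart, and those with and without C3a overlapped. The log2 differences were -1.03 ± 0.13 and -1.25 ± 0.13 (SE).

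Tmsb15b2 measured 114, 92.5 and 115 CPM with vehicle and 109, 110 and 116 with vehicle and C3a. With palmitate it measured 42.6, 35.3 and 46.5, and with palmitate and C3a 36.3, 34.9 and 46.6. The log2 differences were -1.37 ± 0.14 and -1.50 ± 0.14 (SE). In batch 2 alone the differences without and with C3a were -1.19 and -1.39 for Aqp4, -1.05 and -1.28 for Coq8a, -1.26 and -1.10 for Neurl1b, -0.95 and -1.25 for Togaram2, and -1.34 and -1.47 for Tmsb15b2. Among the 15794 genes ordered from the most lowered, the average difference placed Cib3 at 40, Tmsb15b2 at 48, Aqp4 at 77, Neurl1b at 81, Coq8a at 94 and Togaram2 at 119.

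**Figure D1:**
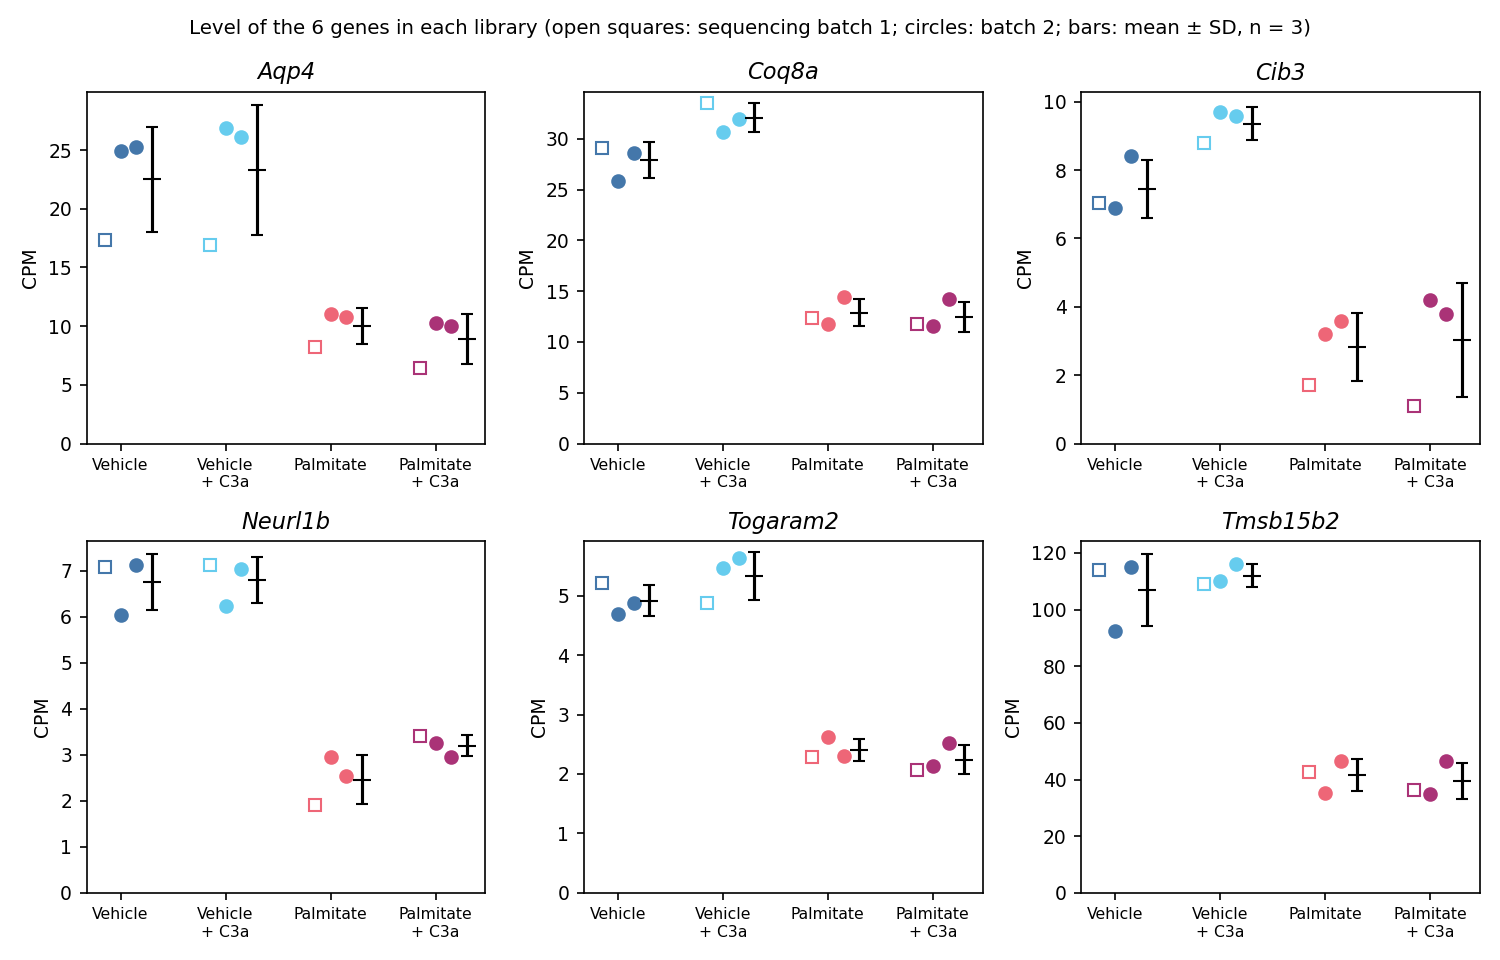
Level of each gene in CPM (vertical axis, from 0) in the 4 groups; open squares are batch 1 libraries, circles batch 2 libraries, and black bars the mean ± SD of 3 libraries. For every gene the 6 palmitate libraries lie below the 6 vehicle libraries, and for Aqp4 the square is the lowest point of each group.

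Levels of different genes were compared per transcript length, as length-scaled TPM recomputed from the counts. Tmsb15b2 was by far the most abundant, at a mean of 357 TPM over the 6 vehicle libraries (range 311 to 393) and 133 with palmitate (115 to 152). Cib3 (21.0 TPM, range 16.9 to 24.4) and Coq8a (19.7 TPM, 16.3 to 23.5) came next and overlapped. Aqp4 followed at 6.65 TPM (4.67 to 7.84), then Togaram2 at 2.28 (2.03 to 2.53) and Neurl1b at 1.69 (1.56 to 1.92), none of which overlapped its neighbours in this order. With palmitate the means were 7.34 for Cib3, 8.22 for Coq8a, 2.76 for Aqp4, 1.09 for Togaram2 and 0.748 for Neurl1b.

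No C3a difference of the 6 genes passed the test. For C3a against no C3a averaged over both media, 0 of 6 were called by edgeR (adjusted p under 0.05), against 0.00633% of all genes, and 0 had an unadjusted p under 0.05, against 3.51% of all genes. DESeq2 also gave 0 of the 6 by both measures. The largest differences were those of Cib3, at 0.20 ± 0.20 (SE; 95% interval -0.25 to 0.66), and Neurl1b, at 0.19 ± 0.11 (-0.05 to 0.43). Aqp4 differed by -0.07 ± 0.05 (-0.17 to 0.03) and Coq8a by 0.08 ± 0.07 (-0.06 to 0.23). Togaram2 differed by 0.01 ± 0.09 (-0.20 to 0.21) and Tmsb15b2 by -0.01 ± 0.10 (-0.22 to 0.21). The edgeR adjusted p was 0.999 for each gene. These intervals leave room for changes of the sizes stated.

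Within each medium the C3a tests share libraries with the contrast that chose the genes, and 0 of 6 were called by edgeR in either, against 0.0% of all genes. In palmitate, 2 of the 6 had 95% intervals that left out 0 before adjustment: Aqp4 at -0.18 ± 0.07 (SE; -0.33 to -0.03) and Neurl1b at 0.36 ± 0.16 (0.01 to 0.72), both with an edgeR adjusted p of 1.0. In vehicle the lowest unadjusted p was that of Coq8a, at 0.20 ± 0.09 (edgeR adjusted p = 1.0). The palmitate difference with C3a minus that without it was -0.23 ± 0.09 for Aqp4 (-0.43 to -0.03) and 0.35 ± 0.22 for Neurl1b (-0.13 to 0.83), and 0 of 6 were called (edgeR adjusted p = 1.0), against 0.0% of all genes. An unadjusted edgeR p under 0.05 was reached by 1 of the 6 genes in vehicle (2.2% of all genes), by 2 in palmitate (2.72% of all genes) and by 1 for this difference (1.59% of all genes). DESeq2 called 0 in each of these comparisons and gave 0 an unadjusted p under 0.05.

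**Figure D2:**
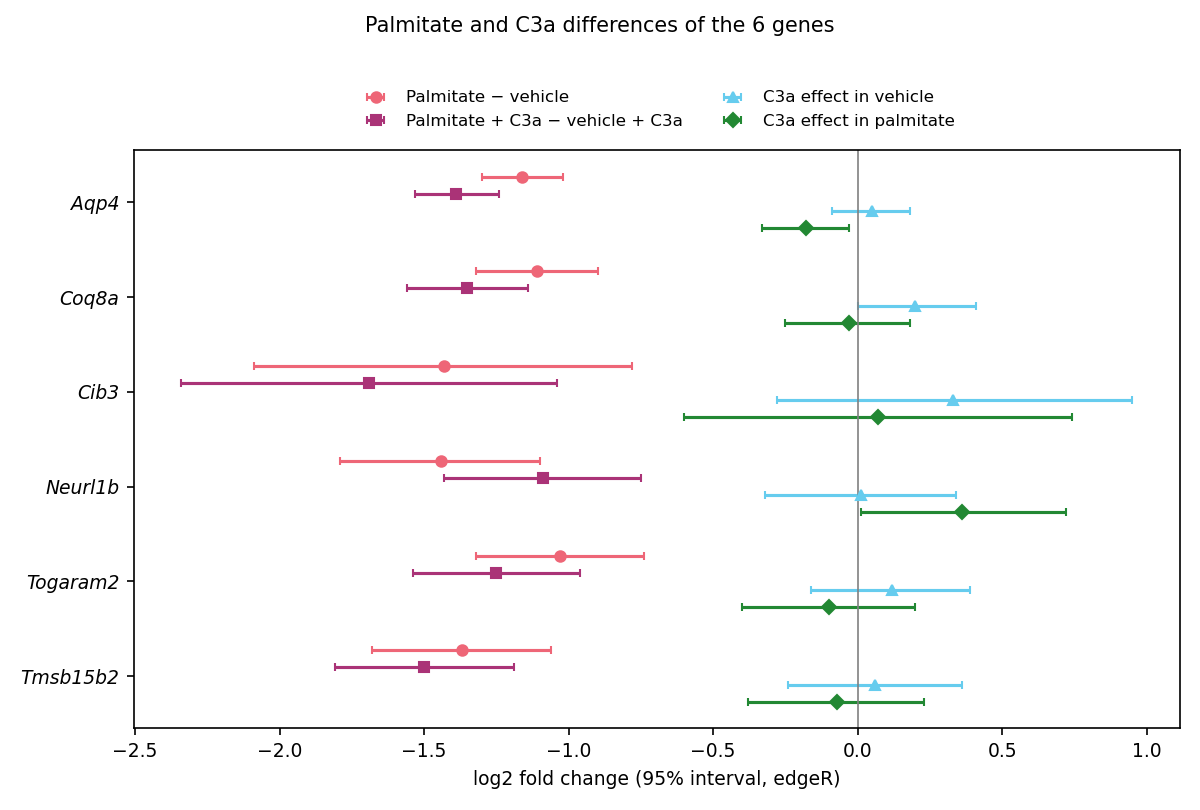
Log2 fold change (horizontal axis) of each gene from edgeR, with a 95% interval built on the derived SE. Shown are palmitate against vehicle without and with C3a, and C3a against no C3a in each medium. The palmitate values lie between -1.69 and -1.03, and the C3a values between -0.18 and 0.36.

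Most of the genes were represented by 1 transcript. Aqp4-201 and Cib3-201 held all counts of their genes, but each was the only transcript of its gene among the deposited counts. The annotation lists 11 for Aqp4 and 2 for Cib3, so use of the others cannot be judged. Neurl1b-201 held 98.2% of its gene and Tmsb15b2-201 held 99.3%. Coq8a was split over 12 transcripts with counts, of which Coq8a-201 held 69.0%, Coq8a-209 17.1% and Coq8a-217 6.43%. Coq8a-217 was at 0 in 8 libraries and took counts in vehicle 1, palmitate 1 and vehicle with C3a 1 and 3. Coq8a-201 and Coq8a-217 together ran from 19.1 to 26.1 CPM with vehicle (median 21.8) and from 8.48 to 11.0 with palmitate (median 9.63). The share of Coq8a-201 within the gene was 65.0% ± 17.4 (SD, n = 6) with vehicle and 66.9% ± 20.6 with palmitate, a difference of 1.92 points (exact permutation test, two-sided, p = 0.79).

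Togaram2 was shared among Togaram2-201 (42.1%), Togaram2-204 (36.5%) and Togaram2-205 (16.6%). The sum of these 3 ran from 4.33 to 5.42 CPM with vehicle and from 1.84 to 2.54 with palmitate, without overlap. Togaram2-201 made up 49.6% ± 13.4 (SD, n = 6) of the gene with vehicle and 21.1% ± 24.5 with palmitate, where it was at 0 in 3 libraries. The difference of -28.5 points had an exact permutation p of 0.0433, two-sided, and did not pass after adjustment over the 2 genes tested (0.0866). It was -7.07 points without C3a and -50.0 points with it, and -15.8 points in batch 2 alone. These transcripts overlap along most of their length, and their counts are estimates.

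**Figure D3:**
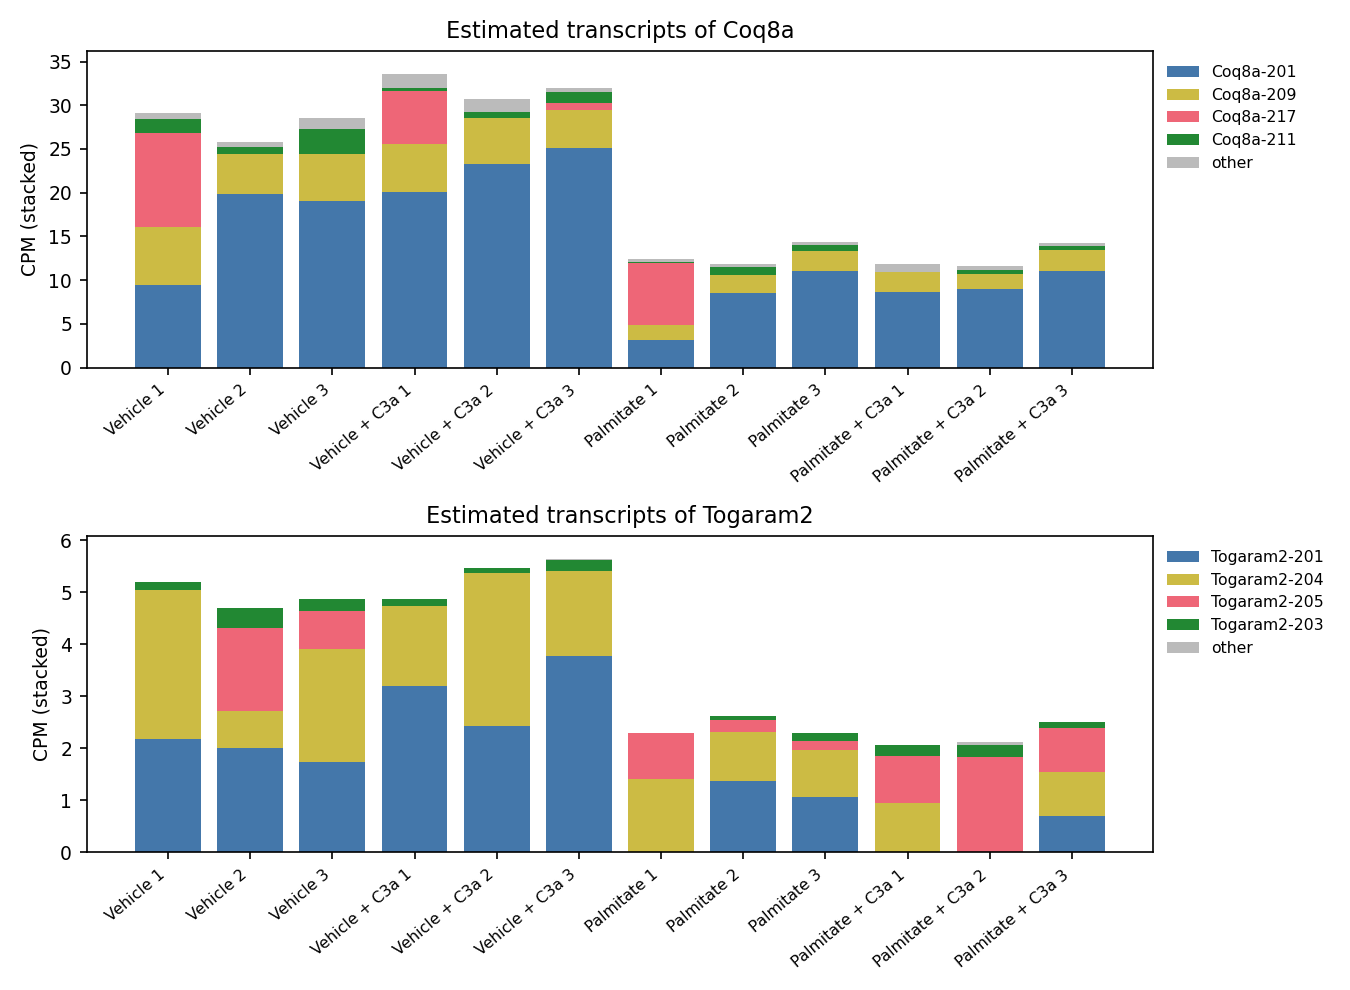
Estimated CPM of each transcript (stacked bars, from 0) of Coq8a and Togaram2 in the 12 libraries. The height of the whole bar falls with palmitate for both genes, while Coq8a-217 and Togaram2-205 appear in some libraries and are at 0 in others.

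The Tmsb15 cluster shares exons as well as sequence. Tmsb15b2-201 has a first exon of its own at chrX:136957899-136958025, and its remaining exons at chrX:136956735-136956839 and chrX:136955265-136955482 are also covered by Tmsb15l-201. Tmsb15l-201 begins with exons that overlap those of Tmsb15b1-201. Of the 420 words of 31 bases in Tmsb15b2-201, 98 (23.3%) occur in no other gene, and 322 occur in Tmsb15l-201. The main transcripts of the other 5 genes are between 99.0% and 100% gene-specific by this measure. How reads were divided within the cluster is therefore uncertain. Only transcripts among the deposited counts were searched, each on its own strand. Reads shared with other annotated transcripts, or with a gene on the opposite strand, are not covered by this measure.

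Both neighbours were lower with palmitate. Averaged over both media, Tmsb15b1 fell by 0.88 ± 0.09 on the log2 scale (SE; edgeR adjusted p = 2.2e-05), from between 6.49 and 8.37 CPM to between 3.25 and 4.72. Tmsb15l fell by 0.99 ± 0.11 (edgeR adjusted p = 2.54e-05), from between 13.5 and 16.1 CPM to between 6.23 and 9.18. With the shared reads, these are not independent of Tmsb15b2. The 3 genes summed ran from 113 to 140 CPM with vehicle and from 44.8 to 60.7 with palmitate, a log2 difference of -1.28 ± 0.14 (SE) without C3a and -1.40 ± 0.14 with it. Tmsb15b2 took 81.4% to 83.8% of the cluster's counts with vehicle and 76.4% to 80.5% with palmitate.

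**Figure D4:**
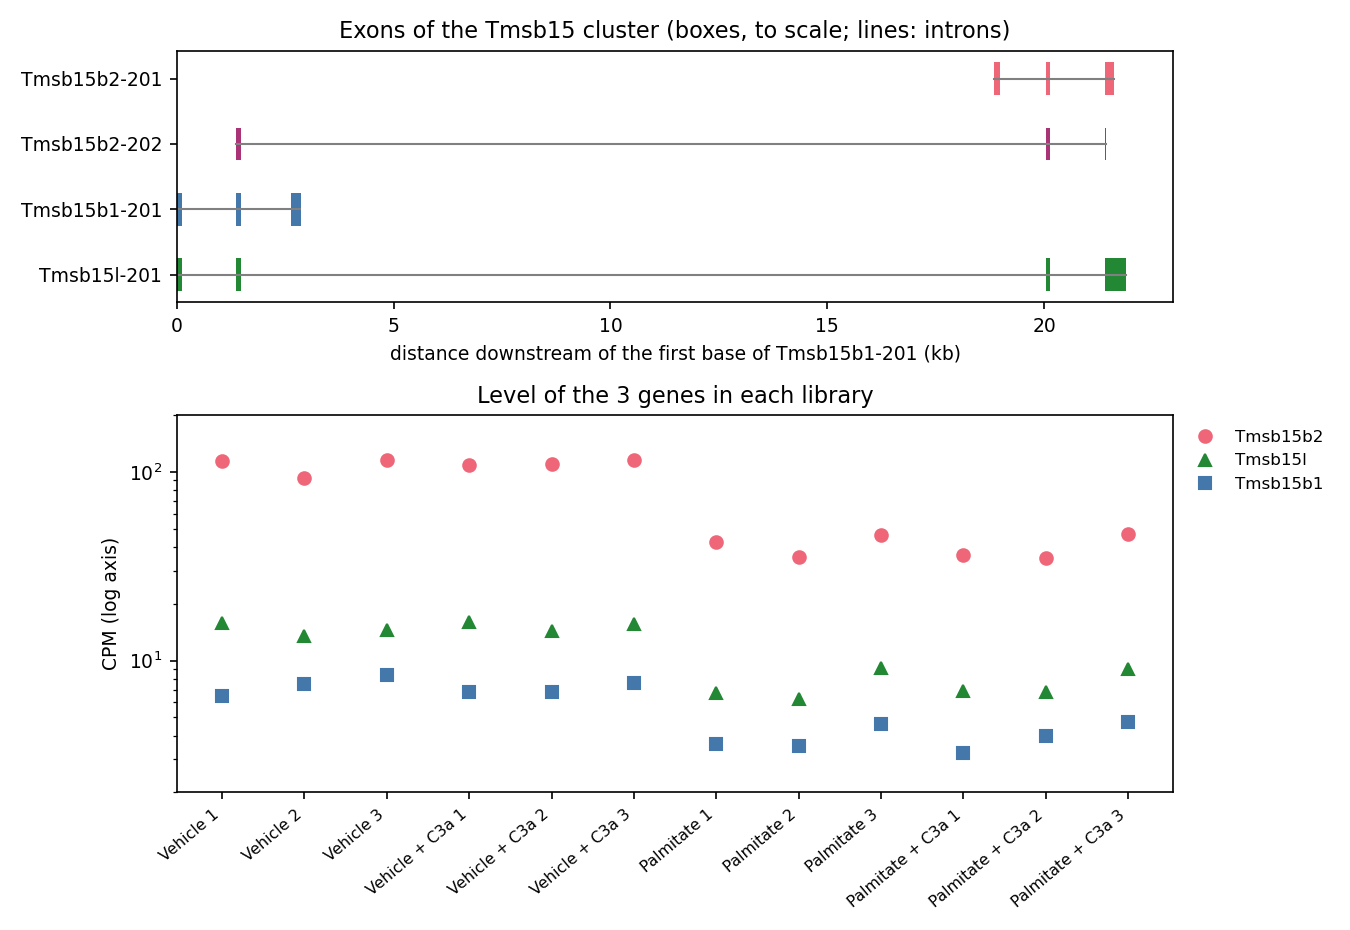
Top, exons of 4 Tmsb15 transcripts (boxes) by distance in kb from the first base of Tmsb15b1-201; bottom, CPM of the 3 genes on a log axis in the 12 libraries. All 3 genes are lower in the 6 palmitate libraries than in the 6 vehicle libraries, Tmsb15b2 being the most abundant throughout.

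Genes related to the 6 by family or pathway were tested for palmitate against vehicle averaged over both media, in which edgeR called 39.7% of all genes (20.3% higher, 19.4% lower) and the median change of all genes was 0.0. The lists were written with earlier results of these data known.

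Among 5 aquaporins tested of 11 listed, 1 rose and 2 fell, with a median of -0.65 on the log2 scale. Aqp11 fell by 0.68 ± 0.07 (SE; edgeR adjusted p = 1.27e-05). Aqp7, a glycerol channel, fell by 0.70 ± 0.15 (adjusted p = 0.00234 by edgeR, 0.113 with no batch term). Aqp3, another glycerol channel, rose by 2.01 ± 0.25 (edgeR adjusted p = 5.79e-05) from a mean of 0.304 to 1.22 CPM. The water channel Aqp1 measured -0.65 ± 0.31 (edgeR adjusted p = 0.129). It is named after its value was seen.

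Of 15 other coenzyme Q genes, 5 rose and 1 fell, with a median of 0.09. Coq7 and Coq3, enzymes that modify the ring, rose by 0.51 ± 0.07 and 0.55 ± 0.09 (SE; edgeR adjusted p = 0.000161 and 0.000568), and Fdx1l, a mitochondrial ferredoxin, rose by 0.58 ± 0.08 (edgeR adjusted p = 0.000175). Coq8b, the paralog of Coq8a, measured -0.04 ± 0.04 (edgeR adjusted p = 0.505) at 30.8 CPM with vehicle and 29.9 with palmitate. It is named as the paralog, after its value was seen.

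Of 8 tested genes of the CIB family and the TMC channels, 2 rose and 1 fell, with a median of -0.01. Cib2 fell by 0.37 ± 0.05 (SE; edgeR adjusted p = 0.000229, and 0.0593 with no batch term). Tmc7 rose by 0.57 ± 0.09 (edgeR adjusted p = 0.000368). Tmc5 rose by 0.62 ± 0.17 (edgeR adjusted p = 0.0137, and 0.174 in batch 2 alone).

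Of 33 tested genes of Neuralized ligases and the Notch pathway, 13 fell and 4 rose, with a median of -0.11. The receptor Notch1 fell by 0.54 ± 0.05 (SE; edgeR adjusted p = 4.15e-06), from a mean of 88.3 to 60.7 CPM. The ligand Jag2 fell by 0.46 ± 0.06 (edgeR adjusted p = 6.5e-05). Notch4, a receptor of endothelial cells, fell by 0.41 ± 0.06 (edgeR adjusted p = 0.000233, and 0.13 with no batch term). Endothelial markers moved alongside: 7 of 8 were called lower, against 19.4% of all genes. Among them were Kdr at -1.01 ± 0.12 and Emcn at -1.13 ± 0.15. The 8 endothelial markers summed to between 195 and 297 CPM with vehicle and between 115 and 227 with palmitate. None of the 8 was at 0. The larger falls in the list were those of the target gene Heyl, at -1.17 ± 0.19 (SE; edgeR adjusted p = 0.00101), and the receptor Notch3, at -0.93 ± 0.16 (edgeR adjusted p = 0.00134), both named after their values were seen. Of 8 fibroblast and pericyte markers, 2 were called lower and 0 higher, but the median of the 8 was 0.29 on the log2 scale. The 2 lower were Pdgfrb at -0.89 ± 0.17 and Rgs5 at -0.72 ± 0.17. The sum of the 8 ran from 342 to 688 CPM with vehicle and from 187 to 1490 with palmitate. The part of either cell type in the Notch list was not tested. The paralog Neurl1a, named after its value was seen, measured -0.09 ± 0.05 (edgeR adjusted p = 0.169).

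Of 12 genes of TOG-domain and ciliary tip proteins, 1 rose and 2 fell, with a median of -0.07. Armc9 fell by 0.20 ± 0.04 (SE; edgeR adjusted p = 0.00098). Clasp2, a microtubule-stabilising protein, rose by 0.22 ± 0.07 (edgeR adjusted p = 0.0306), which missed the threshold with no batch term (0.0592). The call was also lost, at adjusted p-values of 0.056 to 0.0693, without vehicle 2 or 3, vehicle with C3a 1, 2 or 3, palmitate 2, or palmitate with C3a 2. The paralog Togaram1, named after its value was seen, measured -0.10 ± 0.05 (edgeR adjusted p = 0.134).

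Of 14 tested beta thymosins and actin monomer binding proteins, 6 rose and 3 fell, with a median of 0.1. Tmsb15b1 and Tmsb15l were 2 of the 3 that fell, and with the shared reads they are not independent of Tmsb15b2. The other was Tmsb4x, which fell by 0.60 ± 0.09 (SE; edgeR adjusted p = 0.000598). Another beta thymosin, Tmsb10, rose by 0.29 ± 0.06 (edgeR adjusted p = 0.00159). Its libraries overlapped widely, from 25.7 to 87.8 CPM with vehicle and from 32.5 to 106 with palmitate. Tmsb4x and Tmsb10 are named after their values were seen. Wdr1, a partner of cofilin in actin disassembly, rose by 0.31 ± 0.04 (SE; edgeR adjusted p = 0.000181), from a mean of 136 to 170 CPM.

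**Figure D5:**
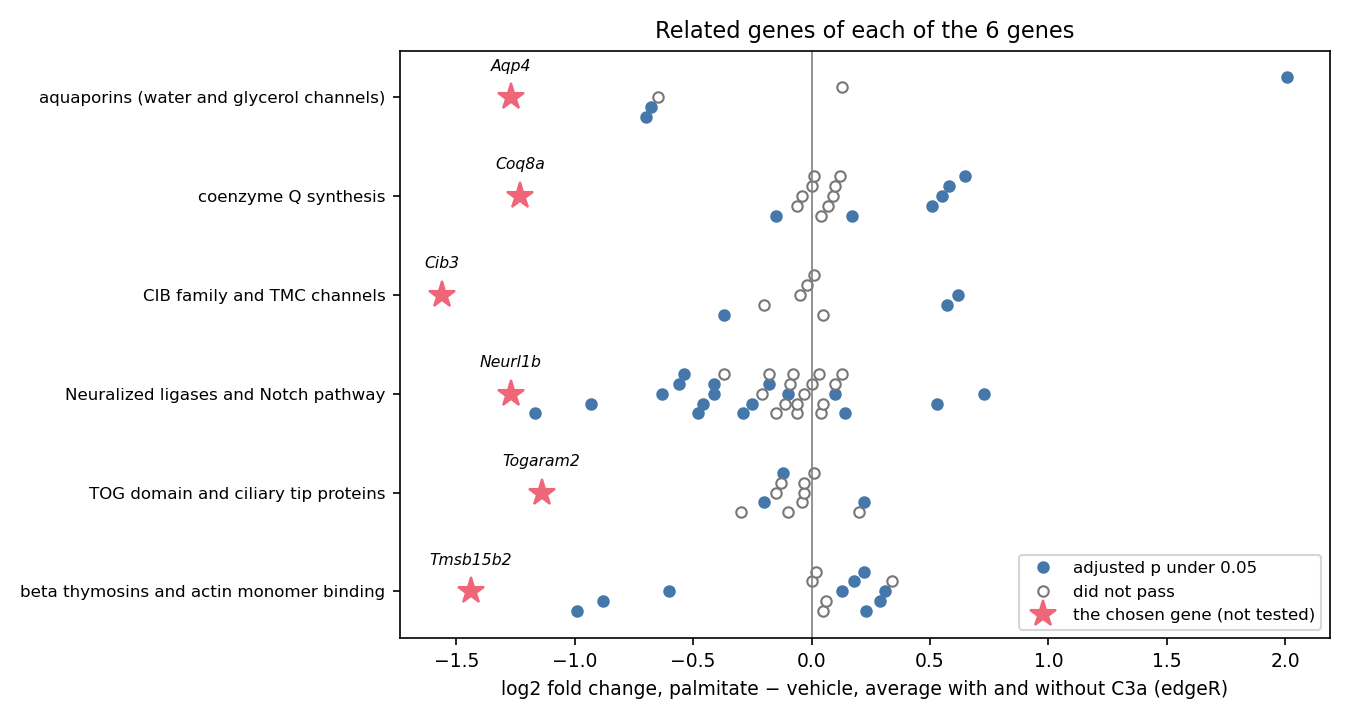
Log2 fold change for palmitate against vehicle averaged over both media (horizontal axis) of the genes in 6 related lists; filled points passed an edgeR adjusted p of 0.05, open points did not, and stars are the 6 chosen genes, which were not tested. Each star lies at or below -1.14, to the left of the other genes of its list.

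Beta cell markers moved with palmitate as well: 6 of 10 were called lower and 1 higher, against 19.4% and 20.3% of all genes. Slc30a8, a zinc transporter of the insulin granule, measured -0.78 ± 0.05 (SE) and the transcription factor Pdx1 -0.52 ± 0.04. No marker of the 10 cell type lists was at 0 in all libraries. The part of any cell type in the differences of the 6 genes was not tested.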

How the data were processed

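Messenger RNA was measured in 12 islet libraries, 3 for each of 4 groups taken from the sample titles. The authors deposited estimated counts per transcript as whole numbers, and per the submitters' processing notes kallisto, DESeq2 and GRCm38 were used, with no role stated. Neither the transcript set nor the strand setting is stated in the labels, so overlapping and near-identical genes are uncertain, including Cdc42bpa on the other strand of Coq8a.

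Of 71524 transcripts, 69942 were matched to GENCODE M21 and summed to 22141 genes, and 1582 unmatched ones (0.581% to 0.677% of a library's counts) were left out. Genes were filtered with filterByExpr (15794 kept), scaled by TMM (0.967 to 1.045) and fitted in edgeR 4.0.16 (R 4.3.3), robust quasi-likelihood, with group and sequencing batch as terms and 7 residual degrees of freedom. P-values were two-sided and Benjamini-Hochberg adjusted over all genes of a comparison, with 0.05 as the threshold. DESeq2 1.42.0 was an alternative. Transcript shares were compared with an exact permutation test over 924 arrangements (smallest p 0.00216). The procedure was tested on simulated data.

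The 6 genes and all lists were chosen with earlier results of these data known. Named beside the 6 were the 3 genes of each list with the smallest p, the 3 genes most alike to each of the 6 in level, and the top 2 markers of a cell type list that moved. One gene that the rule selects is not reported here. Libraries numbered alike share a batch in the labels. The labels also give those numbered 2 a shared date and those numbered 3 another. Deviations of same-numbered libraries from the group means correlated at 0.395 or more in 18 pairs (mean 0.575). The batch difference was not removed from these deviations, so they cannot show pairing beyond batch. The numbers were taken to pair the libraries, and a replicate block was an alternative. Other alternatives were no batch term, RLE scaling, no filter, batch 2 alone, leaving out each library, the main transcript alone, and, chosen after seeing the data, the summed Tmsb15 cluster and the summed full-length Coq8a pair. The lowest chi-square per degree of freedom over 66 library pairs was 7.72, far above sampling noise. Promoters of Aqp4 and Togaram2 are not used here.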

Additional observations from a re-analysis of the deposited data

How the results depend on the processing

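All 6 genes kept a negative palmitate difference in both media under every alternative run. They were chosen for this fall in these same libraries, so the kept sign is a description and no support. The median average difference of the 6 was -1.27, and also -1.27 with the replicate block and with DESeq2. It was -1.2 in batch 2 alone and -1.37 with the main transcript alone. The number of the 6 genes called for C3a stayed 0 under every alternative. Genes of the related lists called lower numbered 22, against 12 with no batch term and 14 in batch 2 alone, and the cause was not tested. The share of all genes called under the alternatives was not counted, so nothing particular to the lists is read from this. With the replicate block, which uses the pairing of the library numbers, 27 genes of the lists were lower and 19 higher. Under the block, the Togaram2-201 share difference of -28.5 points had an exact permutation p of 0.0648 (adjusted 0.13). The block changed no other call. The Coq8a-201 share difference of 1.92 points turned to -0.886 points in the libraries without C3a (exact permutation p = 0.9), and the cause was not tested. The Togaram2 differences were -1.77 and -4.10 when Togaram2-201 was fitted alone, a transcript at 0 in 3 palmitate libraries. Cib3, at 30 and 43 counts in the batch 1 palmitate libraries, ranged from -1.61 to -1.16 without C3a and from -1.88 to -1.28 with it.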

Other observations

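The genes whose levels followed each of the 6 most closely were found by Pearson correlation of log2 CPM with the batch difference removed, over 12 libraries and 13378 genes. The libraries share the palmitate difference, so these values describe the same contrast that chose the 6 genes. Scgn, a calcium-binding protein of endocrine cells, was among the closest to both Coq8a (0.997) and Tmsb15b2 (0.997), and Cdhr1 to both Aqp4 (0.994) and Togaram2 (0.993). The closest to Aqp4 was Suox, sulfite oxidase (0.997), followed by Kcnk16, an islet potassium channel (0.996). Ripply3 (0.998) and Dact2 (0.996) followed Coq8a, and Rab37 (0.996) and Bpnt1 (0.996) followed Tmsb15b2. Gm5069 (0.991), Maob (0.99) and Slc35f1 (0.989) were closest to Cib3. Klhl7 (0.994) and Hp1bp3 (0.993) were close to Togaram2. Neurl1b had the lowest values, with Patz1 at 0.98, Lhfpl4 at 0.979 and Fam222b at 0.977. Among the 15 pairs of the 6 genes, the correlation over all libraries ran from 0.883 to 0.993, whereas that of deviations within groups ran from -0.696 for Aqp4 and Neurl1b to 0.905 for Coq8a and Tmsb15b2, with a median of 0.166.

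Of 13 neighbours tested, 7 fell with palmitate averaged over both media, 2 rose and 4 did not pass. Of all genes, 39.7% were called in this comparison, 20.3% higher and 19.4% lower. The neighbours were the nearest gene on either side of each of the 6 and Cdc42bpa, the Tmsb15 cluster left aside. Some were far off, such as Ahctf1 at 362 kb from Coq8a and Kctd1 at 238 kb from Aqp4. The set of neighbours was chosen after the data were seen. Chst9, a sulfotransferase gene 40.9 kb from Aqp4, fell by 1.03 ± 0.26 on the log2 scale (SE; edgeR adjusted p = 0.00784). Dusp1, 59.2 kb from Neurl1b, rose by 0.45 ± 0.06 (edgeR adjusted p = 0.00013). On one side of Togaram2 Wdr43 rose by 0.40 ± 0.04 (edgeR adjusted p = 9.23e-06), and on the other Clip4 fell by 0.42 ± 0.10 (edgeR adjusted p = 0.00442). Hsh2d, 2.81 kb from Cib3, measured -1.53 ± 0.63 (edgeR adjusted p = 0.0734). The smaller falls were those of Kctd1 beside Aqp4 (-0.27 ± 0.07, edgeR adjusted p = 0.00667), Fam32a beside Cib3 (-0.21 ± 0.03, edgeR adjusted p = 0.000207) and Rab9b beside Tmsb15b2 (-0.16 ± 0.05, edgeR adjusted p = 0.0274). Ahctf1 and Psen2 beside Coq8a and Luc7l beside Neurl1b did not pass. Slc25a53, 5.62 kb from Tmsb15b2, fell by 0.45 ± 0.04 (edgeR adjusted p = 1.11e-05). Cdc42bpa, which overlaps Coq8a on the other strand, fell by 0.19 ± 0.06 (edgeR adjusted p = 0.0281).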
